A study of Mus musculus with 2 samples.

Results

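The early growth response genes Egr1, Egr2 and Egr3, the nuclear receptor genes Nr4a1, Nr4a2 and Nr4a3, the immediate early response genes Ier2, Ier3 and Ier5, and Atf3 were examined in bone marrow-derived dendritic cells of the mouse (GMDC). The 10 genes were taken by name among 22180 genes measured, and each had 1 probe set whose annotation gives that symbol alone. The conditioned-medium culture (TPT) had received conditioned medium from E0771 cells treated with topotecan. E0771 is a mammary carcinoma line of the mouse, and topotecan blocks topoisomerase I. The control culture is labelled only as control, so topotecan treatment of the tumour cells and tumour-conditioned medium as such cannot be told apart. Each condition had 1 array, and the labels give no mouse strain, age, dose or duration of exposure. No value below therefore has a replicate error, no test was possible, and every difference is between 2 arrays.

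Immediate early genes are transcribed from factors already present in the cell, without new protein synthesis, within minutes of a stimulus that reaches ERK, p38, cAMP or calcium signalling. Their promoters are classically bound by serum response factor with its ternary complex partners and by CREB, and their transcripts are mostly short-lived. In myeloid cells EGR factors take part in macrophage differentiation and activation, NR4A receptors are induced by microbial and inflammatory signals, and ATF3 restrains cytokine transcription.

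Levels are log2 intensities as deposited, and a difference is the conditioned-medium value minus the control value. The median of all values on both arrays, 4.10, served as a filter level under which signal may be background. A gene was kept when the higher of its 2 values reached that level, as did 9 of the 10 genes and 13712 of all genes. Nr4a3 was the exception. As a rough scale, probe sets of the same gene differed from each other in their log2 difference by a pooled SD of 0.46. This figure comes from the same 2 arrays. It holds no variation between cultures and no error of preparation or array that all probe sets of a gene share.

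Ier3 was the only one of the 9 kept genes at least 2-fold higher with conditioned medium, and none was 2-fold lower. The background shares over all kept genes were 8.63% for 2-fold higher and 6.84% for 2-fold lower, so 1 of 9 is near the background. At a threshold of 1.5-fold, Ier3, Nr4a1 and Ier5 were higher, 3 of 9 against a background of 16.6%. Egr3 was then the 1 lower member, against a background of 17.9%. At 3-fold, Ier3 alone was higher (background 4.14%) and 0 members were lower (background 2.11%). The differences of 7 of the 9 kept genes lay above 0, against 44.2% of all kept genes. Among these 7, Egr1 (0.20) and Ier2 (0.05) differed by less than the spread between probe sets. The median log2 difference of the 9 was 0.57, beside -0.07 over all kept genes, and without Ier3 it was 0.39.

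**Figure D1:**
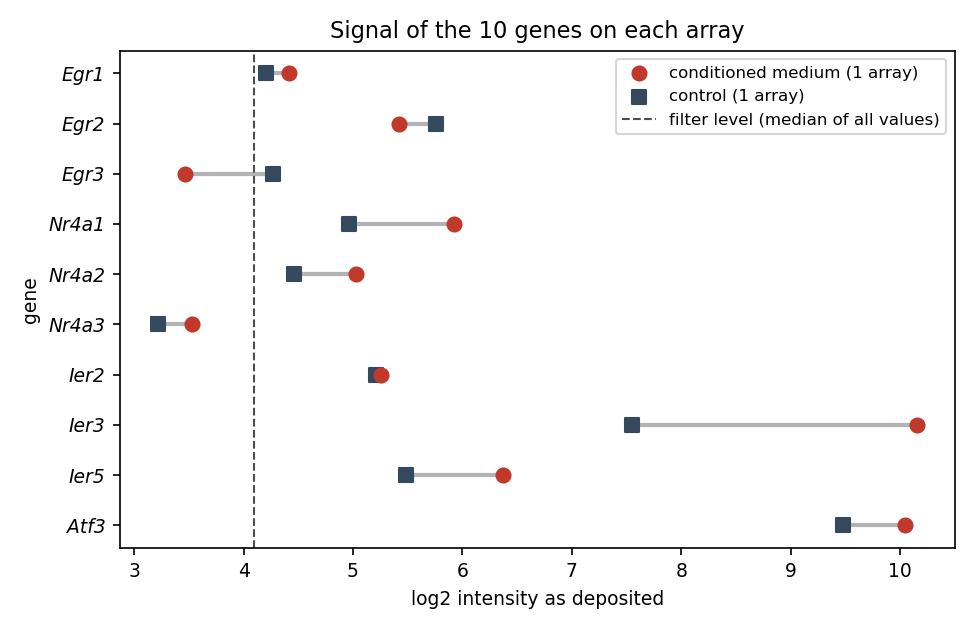
Log2 intensity of each of the 10 genes on the conditioned-medium array (circles) and the control array (squares), with the filter level of 4.10 as a dashed line; each point is 1 array and has no error bar. Ier3 has the widest gap, 10.15 with conditioned medium and 7.55 in the control, Ier2 almost none, and both values of Nr4a3 lie left of the line.

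The EGR genes encode zinc-finger transcription factors that bind GC-rich promoter sites, and they did not share a direction. Egr1, the most widely studied member and a direct target of ERK signalling, had a log2 intensity of 4.41 with conditioned medium and 4.21 in the control. These values lay 0.31 and 0.11 above the filter level in the same order, so Egr1 signal was barely above it on either array, and the difference of 0.20 was smaller than the spread between probe sets. Egr2, which in macrophages and lymphocytes acts in differentiation and restraint of activation, had 5.42 with conditioned medium and 5.76 in the control. Its difference of -0.34 was also smaller than that spread. Egr3, a relative that is also induced by growth factor and antigen receptor signals, had 3.46 with conditioned medium and 4.27 in the control. The conditioned-medium value lay under the filter level and the control value 0.17 above it. As deposited, Egr3 differed by -0.80, a 1.75-fold lower signal, but with the lower value raised to the filter level it differed by -0.17.

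For Egr2, RefSeq promoters of build GRCm38.p6 were searched in the 250 bases before each annotated start, on both strands, for the CArG box of serum response factor and for TGACG, the core of the cAMP response element known for binding CREB and ATF factors. None of its 5 listed starts is the outermost start of the annotated gene. Several of the 5 share matches, which came to 2 distinct CArG boxes and 2 distinct TGACG matches. A single stretch, common to 3 of the starts, held both motifs. A CArG box was found in 1.47% of all 32851 RefSeq promoters and a TGACG match in 17.8%. The stretch below holds both at chr10:67537793-67537822 on the plus strand, 76 to 47 bases before a start. Capitals mark first the CArG box and then the TGACG core, which reads CGTCA on this strand.
Egr2: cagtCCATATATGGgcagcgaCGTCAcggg
The 2 motifs did not overlap. A match describes these letters only, and the Egr2 signal was not higher with conditioned medium.

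Of the 3 NR4A genes, Nr4a1 and Nr4a2 had higher values with conditioned medium, both by less than 2-fold, and Nr4a3 lay under the filter level on both arrays. They encode orphan nuclear receptors whose activity depends largely on how much of the protein is made. Nr4a1 (Nur77), which in mouse monocytes and macrophages is tied to Ly6C-low monocyte survival and to restraint of inflammation, had 5.92 with conditioned medium and 4.97 in the control. Its difference of 0.96, a 1.94-fold higher signal, was just over 2 times the spread between probe sets and just under the 2-fold threshold. It passed that threshold only when a lowess curve of the difference on the level was subtracted, with 1.03. Nr4a2 (Nurr1), best known for dopaminergic neuron development and as a repressor of inflammatory genes in microglia, had 5.03 with conditioned medium and 4.46 in the control, a 1.49-fold higher signal. Nr4a3 (Nor1), which takes part in dendritic cell migration in the mouse, had 3.53 with conditioned medium and 3.22 in the control. Both values of Nr4a3 lay under the filter level, so its difference of 0.31 cannot be told from background. Among all kept genes, 1263 (9.21%) had a higher difference than Nr4a1 and 2321 (16.9%) a higher one than Nr4a2.

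The promoters of the NR4A genes are shown because they share a sequence feature. Each held 4 matches to TGACG in the 250 bases before its start, and 0.137% of RefSeq promoters held as many. The motif and the promoters were chosen after this feature had been seen, so that share is a description and supports nothing. The Nr4a1 and Nr4a3 starts used here lie inside the annotated gene, and only that of Nr4a2 is the outermost start of its gene. The Nr4a1 stretches lie at chr15:101266610-101266639 and chr15:101266774-101266803 on the plus strand, 236 to 207 and 72 to 43 bases before the start. That of Nr4a2 lies at chr2:57124102-57124131 on the minus strand, 128 to 99 bases before its start, and that of Nr4a3 at chr4:48045086-48045115 on the plus strand, 219 to 190 bases before its start. Capitals mark the TGACG cores (TGACG, or CGTCA on the other strand) and, in the second Nr4a1 stretch, a match to the EGR motif GCGNGGGCG, which reads CGCCCCCGC there.
Nr4a1, distal: ctgCGTCAatggaaccccgcgtgCGTCAcg
Nr4a1, proximal: gtgCGTCAgtggCGCCCCCGCccctctcca
Nr4a2: cgggcTGACGgggccgcTGACGcgcttggc
Nr4a3: ccatgtCGTCAcatTGACGtctcgcattcc
The EGR motif was present in the promoters of Nr4a1 and Nr4a2, against 4.70% of all promoters, and overlapped no TGACG match. None of the 3 promoters had a CArG box or an NF-kB motif in this window.

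**Figure D2:**
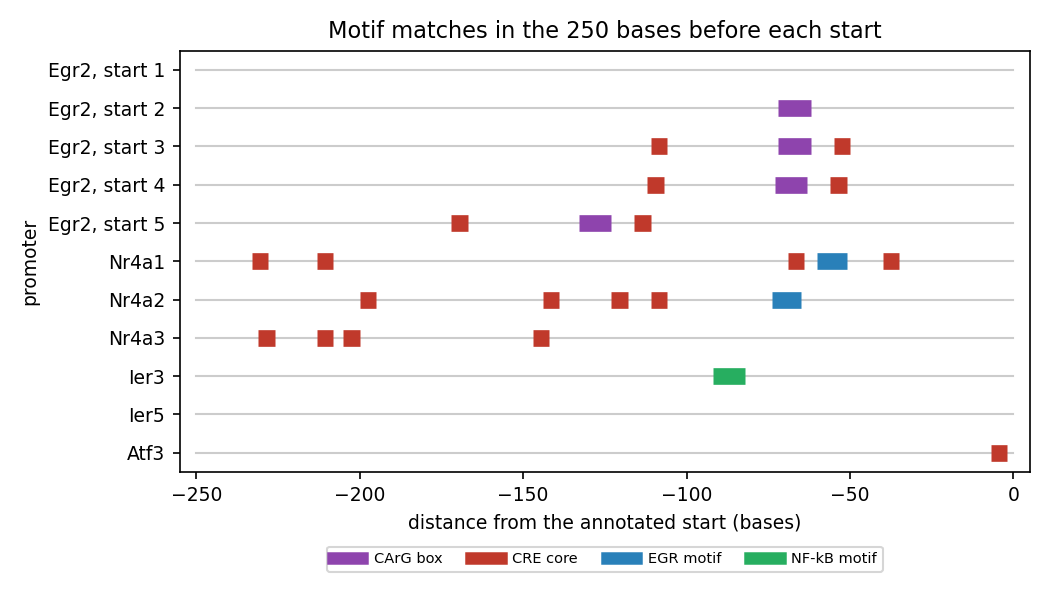
Positions of 4 motifs in the 250 bases before each listed RefSeq start of 7 of the genes; the horizontal axis is distance from the start in bases and each bar is 1 match on either strand. Nr4a1, Nr4a2 and Nr4a3 carry 4 CRE cores (TGACG) each, Ier3 has the only NF-kB match, and Ier5 has none of the 4 motifs.

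The IER genes are immediate early genes of unrelated or loosely related proteins, and they ranged from level to the largest difference of the 10. Ier3 (IEX-1), a short-lived protein that modulates survival, ERK signalling and NF-kB activity and is itself a target of NF-kB and p53, had 10.15 with conditioned medium and 7.55 in the control. These values lay 6.05 and 3.45 above the filter level in the same order. The difference of 2.60 is a 6.07-fold higher signal, and 207 of the kept genes (1.51%) had a higher one. Ier5, which binds protein phosphatase 2A and acts on heat shock factor 1, had 6.37 with conditioned medium and 5.48 in the control. Its 1.85-fold higher signal, a difference of 0.89, lay under 2-fold and was exceeded by 1397 kept genes (10.2%). Ier2, a nuclear protein of growth factor-stimulated cells that is related to Ier5, had 5.26 with conditioned medium and 5.21 in the control, nearly the same value on both arrays.

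The Ier3 promoter is shown as that of the member with the largest difference. It lies at chr17:35821463-35821712 on the plus strand and ends at the base before the start. Capitals mark its 1 match to the NF-kB motif, 92 to 83 bases before the start, a motif found in 3.90% of RefSeq promoters.
Ier3: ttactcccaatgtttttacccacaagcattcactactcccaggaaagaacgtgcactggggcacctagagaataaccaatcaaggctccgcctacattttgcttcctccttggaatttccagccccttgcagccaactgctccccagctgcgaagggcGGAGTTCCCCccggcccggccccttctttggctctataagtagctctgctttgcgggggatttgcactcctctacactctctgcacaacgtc
No TGACG, CArG box or EGR motif was found in this window, nor was any of the 4 motifs in that of Ier5.

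Atf3, a bZIP factor of the ATF/CREB family that is induced by stress and by Toll-like receptor signals, was well above the filter level on both arrays. It had 10.05 with conditioned medium and 9.47 in the control. The difference of 0.57, a 1.49-fold higher signal, was larger than the spread between probe sets and smaller than 2 times that spread. In all, 2329 kept genes (17.0%) had a higher difference. The Atf3 promoter lies at chr1:191183334-191183583 on the minus strand, and capitals mark its 1 TGACG match, 7 to 3 bases before the start.
Atf3: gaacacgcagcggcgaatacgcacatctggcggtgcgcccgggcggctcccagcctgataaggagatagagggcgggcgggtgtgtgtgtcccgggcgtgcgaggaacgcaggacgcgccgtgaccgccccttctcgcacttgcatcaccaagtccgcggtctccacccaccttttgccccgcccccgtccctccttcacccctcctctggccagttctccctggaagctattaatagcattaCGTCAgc

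**Figure D3:**
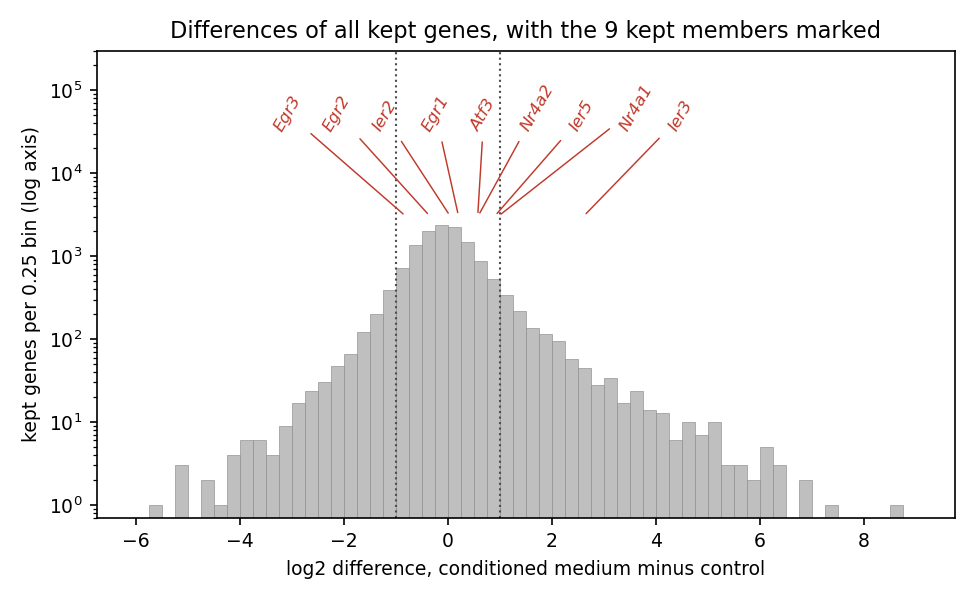
Number of kept genes in bins of 0.25 of the log2 difference, on a log axis, with red lines at the differences of the 9 kept members and dotted lines at 2-fold. Ier3, at 2.60, is the one member beyond the dotted lines, and Egr3, at -0.80, is the lowest.

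In genes known to be repressed by ATF3 in mouse macrophages, signal was higher with conditioned medium. Of the 5 listed, 4 were at least 2-fold higher, against 8.63% of all kept genes. This list and the comparison lists below were fixed with earlier results of these data known, so their counts are descriptions only. Il6, the gene of interleukin-6, had 11.51 with conditioned medium and 4.11 in the control, a 169-fold higher signal whose control value lay at the filter level. Tnf had 8.17 with conditioned medium and 5.48 in the control (6.46-fold). Ccl4, a chemokine gene, had 12.73 with conditioned medium and 10.09 in the control (6.23-fold). Ch25h, the gene of an oxysterol-producing enzyme, had 11.77 with conditioned medium and 6.83 in the control (30.7-fold), and its other probe set differed by 3.99. Il12b, a subunit of interleukin-12, had 5.15 with conditioned medium and 4.31 in the control and stayed under 2-fold (1.80-fold). These 5 genes have many other regulators.

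Other immediate early genes included many with higher signal in the conditioned-medium culture. Of 41 listed, 39 were measured and 38 kept. Among those 38, the count was 19 for 2-fold higher, 0 for 2-fold lower and 19 for genes in between. Ppp1r15a, which was at least 2-fold higher, is counted again among the integrated stress response genes below, and Srf among the upstream regulators. Over all kept genes, 8.63% were 2-fold higher and 6.84% lower. The median difference of the 38 was 1.01. The highest were Ptgs2, the gene of the prostaglandin synthase COX-2 (7.47 with conditioned medium and 3.41 in the control, 10.3-fold against the filter level), and Gadd45b, a stress sensor of p38 and JNK signalling (11.64 and 9.09 in the same order, 5.84-fold). The lowest were Zfp36l2, which encodes an mRNA-destabilising protein (3.66 with conditioned medium and 4.59 in the control), and Arc, a neuronal immediate early gene (5.24 with conditioned medium and 5.87 in the control). Zfp36l2 lay under the filter level with conditioned medium, and against that level it differed by -0.50. Egr4 and Ier5l, which are relatives of members, and the further gene Csrnp1 did not move as one. Egr4 had 4.22 with conditioned medium and 4.09 in the control, close to the filter level on both arrays. Ier5l had 5.65 with conditioned medium and 5.92 in the control. Csrnp1, an immediate early nuclear protein, had 5.34 with conditioned medium and 3.62 in the control, 2.36-fold against the filter level.

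AP-1 and BATF factors passed 2-fold in both directions, while Kruppel-like factors and the feedback inhibitors of MAP kinases did so upward only. The background shares over all kept genes were 8.63% for 2-fold higher and 6.84% for 2-fold lower. Among 9 kept AP-1 and BATF genes, 2 passed 2-fold upward and 1 downward, and the median was 0.70. With values raised to the filter level that median was 0.32. Batf2, an interferon-inducible BATF factor, was 4.97-fold higher and Fos 3.18-fold, but Fos had 4.42 with conditioned medium and 2.75 in the control and was 1.25-fold higher against the filter level. Batf3, needed for cross-presenting dendritic cells, was 4.08-fold lower, and Batf differed by -0.35. Of 13 kept Kruppel-like factors 1 passed 2-fold upward, near the background, and 0 downward, and the median was 0.17. That was Klf4 (8.99 with conditioned medium and 5.60 in the control, 10.5-fold), followed by Klf3 at 0.79, while Klf16 (-0.38) and Klf13 (-0.21) were the lowest. Of 17 kept dual-specificity phosphatase, Sprouty and Spred genes, which limit ERK, p38 and JNK signalling, 6 passed 2-fold upward and 0 downward, and the median was 0.27. Dusp5 (5.56-fold) and Dusp1 (4.69-fold) were the highest, and Spry1 (-0.95) and Dusp6 (-0.26) the lowest. A second probe set of Dusp6 differed by 1.19, so the direction of Dusp6 is unsettled.

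**Figure D4:**
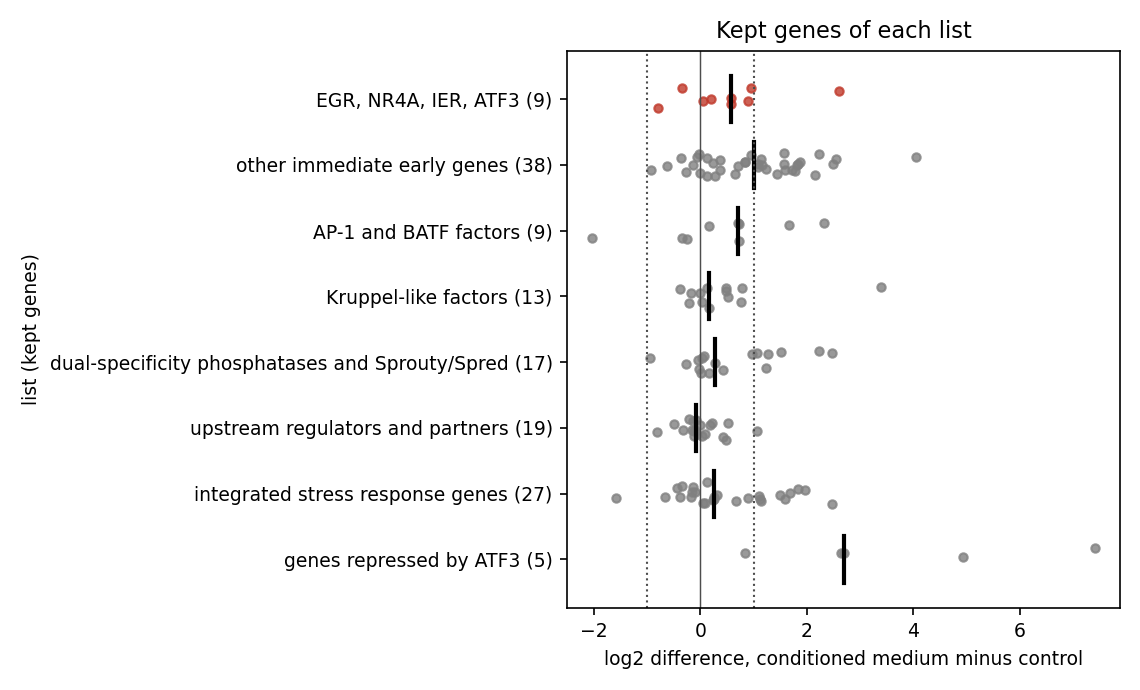
Log2 difference of every kept gene in the 10-gene set (red) and in 7 comparison lists (grey), with a black bar at each list's median and dotted lines at 2-fold; the number of kept genes stands beside each name and points are spread vertically for visibility only. The medians run from -0.08 for upstream regulators and partners to 2.69 for the genes repressed by ATF3, with 0.57 for the 10-gene set.

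The transcripts of factors that act on these promoters, or partner the proteins, lay close to level. Of 19 kept genes for ERK and p38 pathway kinases, SRF, its ternary complex and myocardin-related partners, CREB and its coactivators, NAB corepressors and RXR receptors, 1 passed 2-fold upward and 0 downward, and the median was -0.08. The higher one was Elk4, a ternary complex factor (6.06 with conditioned medium and 5.01 in the control, 2.08-fold), followed by the ERK kinase gene Map2k1 (0.51). Mrtfa, an SRF coactivator, differed by -0.82 and Map2k2 by -0.50. Srf itself had 4.77 with conditioned medium and 4.91 in the control. Nab1, a corepressor of EGR factors, had 5.23 with conditioned medium and 5.39 in the control. The 2 probe sets of its relative Nab2 disagreed in sign, with differences of 0.43 and -0.57. Rxra (0.19) and Rxrb (-0.13), which encode partners of NR4A1 and NR4A2, differed by less than the spread between probe sets. Since phosphorylation controls most of these factors, transcript levels do not report their activity.

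In the integrated stress response, through which ATF4 induces Atf3, 9 of 27 kept genes passed 2-fold upward and 1 downward. Over all kept genes these shares were 8.63% and 6.84% in the same order. Of the 27, 17 did neither, and the median was 0.26. Atf4 itself was not higher, with 9.98 with conditioned medium and 10.36 in the control, and a route from ATF4 to Atf3 was not tested. Nupr1, a stress-induced chromatin protein gene, had 11.35 with conditioned medium and 8.88 in the control (5.54-fold). Slc3a2, the heavy chain of amino acid transporters, was 3.89-fold higher. Pck2, the gene of mitochondrial PEP carboxykinase, differed by -1.58, and Eif2ak4, that of the amino acid sensor GCN2, differed by -0.66.

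By Euclidean distance over the 2 values, the kept genes nearest to Ier3 were Gm9199 (0.07), the interferon-inducible GTPase gene Iigp1 (0.31) and the interleukin-1 receptor antagonist gene Il1rn (0.32). Those nearest to Egr3 were Bex6 (0.01), Il11 (0.02) and Gm20783 (0.03). Likeness over 2 arrays is a description of these values only.

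Markers of other cells moved between the arrays, and their part in the differences above was not tested. In bulk RNA, fewer cells of a type and less RNA per cell cannot be told apart. Over all kept genes, the share was 8.63% for 2-fold higher and 6.84% for 2-fold lower. Neutrophil markers were mostly lower, with 9 of 10 at least 2-fold lower. Their log2 summed signal was 11.31 with conditioned medium and 13.34 in the control. Only Ly6g went the other way, with 6.88 with conditioned medium and 6.14 in the control, a difference of 0.74. Of 9 kept dendritic cell markers 3 were at least 2-fold higher and 3 lower, and the summed signal was 12.71 with conditioned medium and 11.56 in the control. The 3 higher ones, H2-Aa, H2-Eb1 and H2-Ab1, are all MHC class II chains, and the 3 lower ones were Clec10a (-2.01), Flt3 (-1.23) and Itgax (-1.03). The tenth measured marker, Zbtb46, was under the filter level on both arrays. All 9 measured macrophage markers reached the filter level, and 0 were 2-fold higher and 3 lower. The lower ones were Csf1r (-2.93), Mrc1 (-2.74) and Adgre1 (-2.29). The summed signal of the 9 was 14.04 with conditioned medium and 13.80 in the control. Mast cell and basophil markers summed to 8.47 with conditioned medium and 9.39 in the control (3 of 4 kept at least 2-fold lower), and T, B and NK cell markers to 6.97 and 6.72 in the same order (0 of 3 kept past 2-fold). Of 7 measured mammary epithelial markers, 5, including Epcam and Krt18, were under the filter level on both arrays. Their summed signal was 10.31 with conditioned medium and 7.53 in the control, carried by Cdh1, which differed by 3.79 in one probe set and 0.55 in the other. Fibroblast markers summed to 11.18 with conditioned medium and 11.63 in the control, with 1 of 6, Dcn, at least 2-fold higher.

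**Figure D5:**
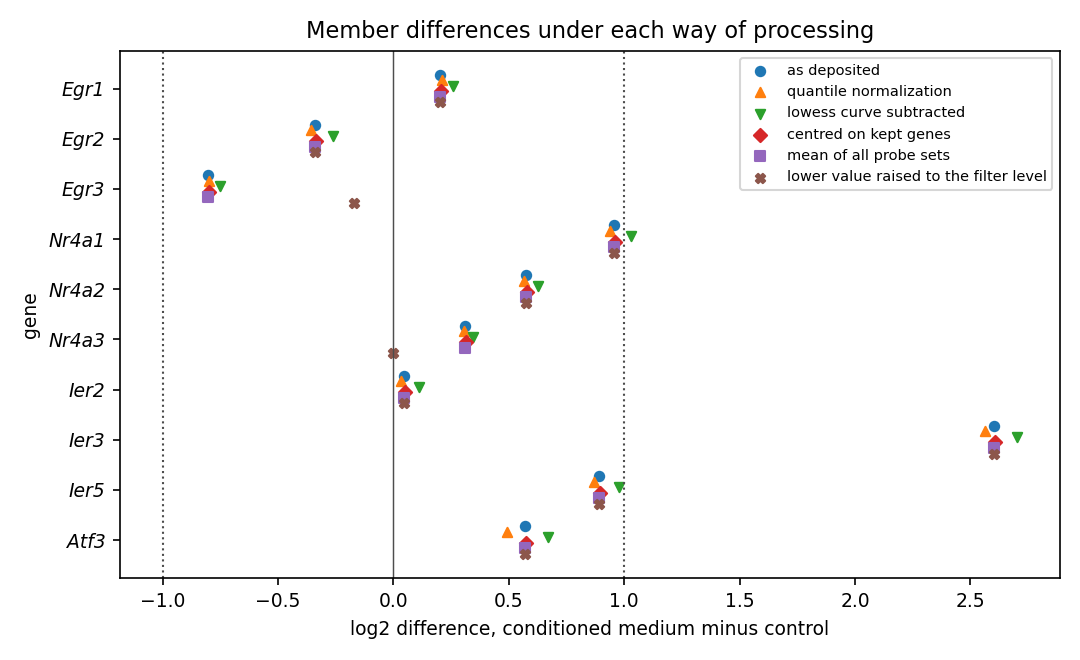
Log2 difference of each of the 10 genes as deposited and under 5 other ways of processing, with dotted lines at 2-fold. Ier3 stays between 2.56 and 2.70, Nr4a1 between 0.94 and 1.03, and Egr3 has -0.80 as deposited and -0.17 when its lower value is raised to the filter level.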

How the data were processed

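Total RNA of each culture was extracted with Trizol and labelled with biotin (per the labels' protocols). Affymetrix Expression Console is named by the submitters' processing notes, with version, algorithm and build not given in the sources used here. Values deposited by the authors, 1 for each probe set on each array, were read as log2 intensity because both arrays span about the same range (0.02 to 13.50 with conditioned medium and -0.26 to 13.42 in the control) with medians of 4.09 with conditioned medium and 4.10 on the control array. The log base is thus an inference. Such equal distributions would hide a common shift.

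Of 41345 probe sets, 23521 had 1 gene symbol in the platform annotation, 1814 had more than 1 and stayed unnamed, and 16010 were not listed there. Where a gene had several probe sets, that of highest mean level was used. The code for differences and counts was checked on simulated arrays with known changes, which is no test of the differences themselves. The spread between probe sets came from 652 genes with 2 or more probe sets (787 degrees of freedom). The number of arrays limits the precision. Promoters came from RefSeq (GRCm38.p6, 7 of the 10 genes matched). The 4 motifs and the sequences shown were chosen after the promoters had been seen. Sequences were shown whole only where no coding gene is annotated, otherwise as windows of 30 bases.

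All 10 genes were named, as were the 2 highest and 2 lowest kept genes of each of 7 lists (145 entries). The 5 genes repressed by ATF3 were also named, and so were 8 fixed genes (relatives, partners and Csrnp1). The 3 genes nearest to the highest and the lowest kept member were named as well. Other markers and Atf4 were named after their values were seen. The members and lists were chosen with earlier results of these data known. Software was Python 3.11.15 with numpy 2.4.6, with pandas 2.3.3, statsmodels 0.14.6 and matplotlib 3.10.9.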

Additional observations from a re-analysis of the deposited data

How the results depend on the processing

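Values were recomputed with quantile normalization, after subtracting a lowess curve (fraction 0.3, 3 iterations), after centring on kept genes, with probe sets averaged per gene, without the filter, with it at the 75th percentile or on the mean level, with values raised to the filter level, and at 1.5-fold and 3-fold. Of 50 member differences recomputed, 49 moved by less than the spread between probe sets, and Egr3 moved to -0.17 against the filter level. The median of the kept members ranged between 0.44 and 0.89. With the lowess curve subtracted, 2 members were at least 2-fold higher, as were 1344 of all 13712 kept genes. With the filter at the 75th percentile the median was 1.25 for the phosphatase, Sprouty and Spred genes and 3.82 for the genes repressed by ATF3. With that filter, as with the filter on the mean, 1 AP-1 or BATF gene was at least 2-fold higher. Of all genes kept by these 2 filters, 1004 of 7400 and 1112 of 12755 were at least 2-fold higher, in the same order. At 1.5-fold, 3 of 9 members, 5 of 9 AP-1 or BATF genes and 3 of 13 Kruppel-like factors were higher, against 16.6% of all kept genes. Lower were 1 of 9 members, 2 of 38 other immediate early genes and 1 of 17 phosphatase or Sprouty genes. So were 1 of 19 upstream regulators and 2 of 27 stress response genes, against 17.9% of all kept genes. At 3-fold, 11 of 38 other immediate early genes and 2 of 17 phosphatase or Sprouty genes were higher. So were 0 of 19 upstream regulators and 5 of 27 stress response genes, against 4.14% of all kept genes. Of the stress response genes 0 were lower, against 2.11% of all kept genes. The other 128 counts and 62 medians stayed within 1.5 times or within the spread. No paired analysis was possible because each condition had 1 array. Signal near background limits what can be said of Egr1, Egr3 and Nr4a3.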
